A study of Caenorhabditis elegans with 6 samples.

Results

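Transcript levels of 10 Caenorhabditis elegans genes that encode heme peroxidases, dual oxidases and the partners of dual oxidase were compared between larvae raised with and without sodium perchlorate. The genes were taken by name, as enzymes and partners of tyrosine cross-linking, with earlier results of these data known. All 10 of 10 matched a row with exactly 1 gene symbol in the platform annotation, and each gene had 1 such row, among 25478 genes measured by a row of their own. The study used 6 Affymetrix arrays of total RNA from whole wild-type hermaphrodites of strain N2 at the L4 larval stage. The perchlorate group (n = 3 arrays) was exposed to sodium perchlorate at 1 mg/mL, mixed into both the agar and the Escherichia coli OP50 food, for 48 hours at 20 °C from the L1 stage. The control group (n = 3 arrays) had the same strain, stage and growth time on plain nematode growth medium. Protocol notes attached to the control samples also mention perchlorate, but the control titles do not, and the titles were followed. The labels name no separate culture for each replicate, and the p-values measure only the spread between these samples, which may be technical.

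In the nematode epidermis, a dual oxidase at the cell surface makes hydrogen peroxide, and peroxidase domains use it to join tyrosines of neighbouring cuticle proteins. The cuticle is rebuilt at each moult, and loss of the dual oxidase gene bli-3 is known for a blistered, poorly cross-linked cuticle. Peroxidasins are related heme enzymes of the extracellular matrix, known in mammals and flies for cross-linking collagen IV of basement membranes. In vertebrates, dual oxidase and thyroid peroxidase act together in thyroid hormone synthesis, and perchlorate is known there for blocking iodide uptake.

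Perchlorate replicate 1 stood apart from the other arrays before any single gene was considered. On the first principal component of the tested rows, which held 38.9% of the variance, it scored 47.7, against 12.2 and 13.1 for the other perchlorate arrays and between -27.2 and -20 for the controls. The values of all arrays are log2 probe set values made by the authors with RMA, with medians between 5.81 and 5.89 on the perchlorate arrays and between 5.83 and 5.87 on the control arrays. Values without this array are given for the 10 genes, and for the other lists and their named genes where it moves the value by over 1.5 times or changes a count.

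The 10 genes did not move as 1 group. Means were lower with perchlorate in 5 genes, beside 44.8% of all tested rows, and higher in 5, and the median log2 difference was -0.01, against 0.03 over all 26192 tested rows. Without perchlorate replicate 1, 4 genes had lower means and the median was 0.05. The largest difference was in skpo-2, at 42.2% of the control level, while the other 9 genes lay between 71.4% and 125% of it. In limma with Benjamini-Hochberg adjustment over all tested rows, 0 of the 10 were lower and 0 were higher at an adjusted p under 0.05, beside 0.00764% of all rows lower and 0% higher. At an unadjusted limma p under 0.05, 1 gene (skpo-2) was lower and 0 were higher, beside 7.92% and 8.46% of all rows. Without perchlorate replicate 1 these counts were again 1 and 0, beside 7.24% and 7.03% of all rows. The 3 perchlorate values lay below all 3 control values in 3 genes (bli-3, mlt-7 and skpo-2), beside 11.2% of all rows, and above them in 2 genes (skpo-1 and pxn-2), beside 12.8%. With so few genes, these counts are a description, and no test was made of the list.

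**Figure D1:**
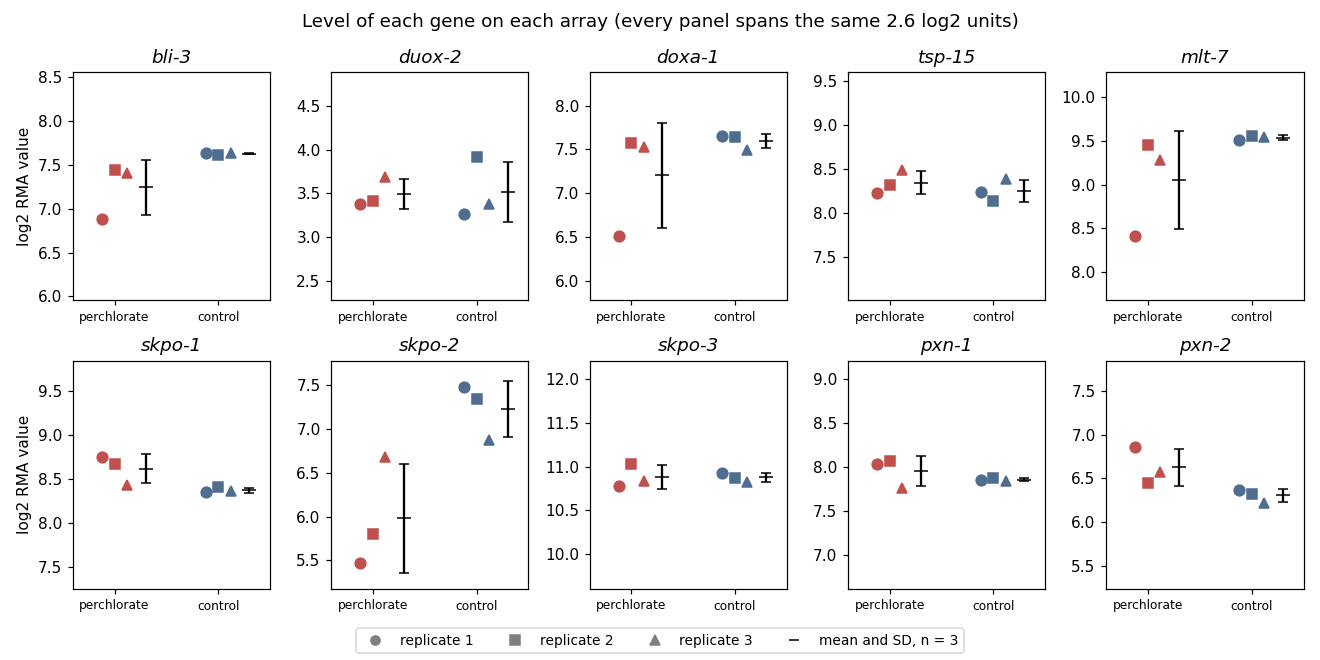
Log2 RMA value (vertical axis, every panel spanning the same range) of the 10 genes on each perchlorate array (left) and each control array (right); symbols give the replicate number, and the black mark is the mean with the SD (n = 3). The perchlorate values of skpo-2 lie between 5.47 and 6.67, all below the control values, and in bli-3, doxa-1 and mlt-7 replicate 1 is far below the other perchlorate arrays.

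Of the dual oxidases, bli-3 encodes the enzyme that carries both a peroxidase domain and an NADPH oxidase domain and supplies peroxide to the cuticle. Its log2 level was 6.88, 7.44 and 7.41 on the perchlorate arrays, against 7.63, 7.62 and 7.63 on the control arrays. All 3 perchlorate values were below the controls, with a gap of 0.18 between the groups, and the control values lay close together (7.63 ± 0.00894, against 7.24 ± 0.311 with perchlorate; SD, n = 3 each). The bli-3 means differed by -0.38 on the log2 scale (SE 0.167, limma adjusted p = 0.314), which is 76.7% of the control level, with a 95% interval from -0.78 to 0.01. Without perchlorate replicate 1 it was -0.20 (SE 0.110, limma adjusted p = 0.453), and both remaining perchlorate values still lay below the 3 controls.

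The second dual oxidase gene, duox-2, lies beside bli-3 on the chromosome, with 1 protein-coding gene, F53G12.18, between them in the RefSeq table of assembly WBcel235. It read 3.38, 3.41 and 3.69 with perchlorate, against 3.26, 3.91 and 3.38 in controls. These values overlapped, and all 6 were below the lower quartile of their array, which was at most 4.09 with perchlorate and 4.03 in controls and at least 3.96 on any array. They differed by -0.02 on the log2 scale (SE 0.194, limma adjusted p = 0.967; 0.04 without replicate 1), with a 95% interval from -0.48 to 0.44. At so low a signal a difference in duox-2 may not be detectable, and whether its probes also bind transcripts of the related gene bli-3 was not tested.

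Partners of the dual oxidase were measured by 2 of the genes. The first, doxa-1, encodes the counterpart of the vertebrate dual oxidase maturation factor, which brings the enzyme to the cell surface. Its level was 6.52, 7.57 and 7.53 with perchlorate, against 7.65, 7.64 and 7.50 in controls. Only replicate 1 was low, and the other perchlorate values overlapped the controls. The log2 difference of -0.39 (SE 0.279, limma adjusted p = 0.528) was -0.04 (SE 0.119, limma adjusted p = 0.898) without that array.

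The second, the tetraspanin gene tsp-15, encodes a membrane protein of the epidermis that associates with BLI-3 and DOXA-1 and is needed for an intact cuticle. It read 8.22, 8.32 and 8.48 with perchlorate, against 8.24, 8.13 and 8.38 in controls, so that the groups overlapped. Perchlorate minus control was 0.09 (SE 0.126, limma adjusted p = 0.758; 0.15 without replicate 1), and its 95% interval spanned 0.867 to 1.31 times the control level. Perchlorate replicate 1, which was low for bli-3 and doxa-1, was 0.03 below the control mean for tsp-15. Whether tsp-15 differed from bli-3 in its response was not tested.

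The peroxidase gene mlt-7 encodes a secreted enzyme that works with BLI-3 in cuticle cross-linking and is needed to complete moulting. Its level was 8.41, 9.45 and 9.28 with perchlorate, against 9.50, 9.55 and 9.55 in controls. All 3 perchlorate values were below the controls, but the gap between the groups was only 0.05 and replicate 1 lay 1.12 below the control mean. Their means differed by -0.49 on the log2 scale (SE 0.261, limma adjusted p = 0.398), which is 71.4% of the control level, and it was -0.17 (SE 0.12, limma adjusted p = 0.565) without replicate 1.

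The means of the skpo genes, named for peroxidases with an ShK domain, did not all move the same way. The largest difference of the 10 genes was in skpo-2, which read 5.47, 5.80 and 6.67 with perchlorate, against 7.48, 7.33 and 6.87 in controls. All perchlorate values were below the controls, with a gap of 0.20, and both groups were spread widely (5.98 ± 0.621 with perchlorate and 7.23 ± 0.319 in controls; SD, n = 3 each). Perchlorate minus control came to -1.25 on the log2 scale (SE 0.317, limma adjusted p = 0.159), which is 0.422 times the control level, with a 95% interval from 0.251 to 0.708 times. Without perchlorate replicate 1 it was -0.99 (SE 0.303, limma adjusted p = 0.254). Unlike in bli-3, doxa-1 and mlt-7, a second perchlorate array was also far from the controls: against the control mean skpo-2 was at -1.43 in replicate 2 and -0.55 in replicate 3.

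In contrast, skpo-1, a peroxidase gene known for a role in resistance to the bacterium Enterococcus faecalis, read 8.75, 8.67 and 8.43 with perchlorate, against 8.35, 8.40 and 8.36 in controls. The perchlorate values were all above the controls, by a gap of 0.03. On the log2 scale this came to 0.25 (SE 0.122, limma adjusted p = 0.362), or 1.19 times the control level, and 0.18 (SE 0.128, limma adjusted p = 0.553) without replicate 1. Replicate 1 was the highest of the 6 arrays for skpo-1 and the lowest for skpo-2. The third gene, skpo-3, read 10.78, 11.03 and 10.83 with perchlorate, against 10.93, 10.87 and 10.83 in controls. The groups overlapped, and the means differed by 0.01 (SE 0.116, limma adjusted p = 0.981; 0.06 without replicate 1), with a 95% interval from 0.832 to 1.21 times the control level. That interval and the interval of skpo-1, 0.973 to 1.45 times, lay wholly above the interval of skpo-2.

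Both peroxidasin genes had slightly higher means with perchlorate. PXN-2 is known in C. elegans for epidermal attachment in the embryo and for axon guidance, and PXN-1 for acting against PXN-2. The level of pxn-2 was 6.86, 6.44 and 6.58 with perchlorate, against 6.37, 6.33 and 6.22 in controls. All perchlorate values were above the controls, by a gap of 0.07. The means were 0.32 apart on the log2 scale (SE 0.139, limma adjusted p = 0.313), or 1.25 times the control level with a 95% interval from 0.995 to 1.57 times, and it was 0.20 (SE 0.122, limma adjusted p = 0.498) without replicate 1. For pxn-1 the level was 8.03, 8.07 and 7.76 with perchlorate, against 7.85, 7.87 and 7.84 in controls. Here 2 perchlorate values were above the controls and replicate 3 was the lowest of all 6, and the means differed by 0.10 (SE 0.123, limma adjusted p = 0.731), or by 0.06 (SE 0.137, limma adjusted p = 0.879) without replicate 1.

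**Figure D2:**
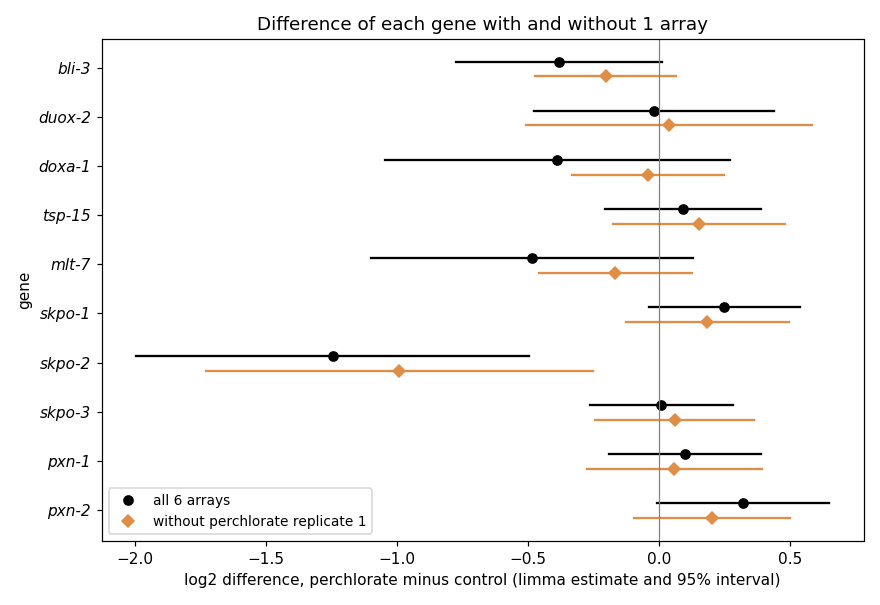
Log2 difference (horizontal axis, perchlorate minus control) of the 10 genes, with limma's 95% interval, from all 6 arrays (black circles) and without perchlorate replicate 1 (orange diamonds). The skpo-2 interval lies below 0 in both fits, while those of the other 9 genes cross 0; the doxa-1 difference moves from -0.39 to -0.04.

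The spread among perchlorate arrays was wider than among controls in 9 of the 10 genes, against 62.6% of all tested rows. The median SD of the 10 genes was 0.193 with perchlorate and 0.0636 in controls, and over all tested rows it was 0.193 and 0.147. The exception was duox-2, the gene with the lowest signal. Replicate 1 gave the lowest of the 3 perchlorate values in 7 of the 10 genes, beside 31.3% of all rows. The median over the 10 genes, each set against its control mean, stood at -0.12, 0.02 and -0.05 in perchlorate replicates 1, 2 and 3, and between -0.03 and 0.02 in controls.

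**Figure D3:**
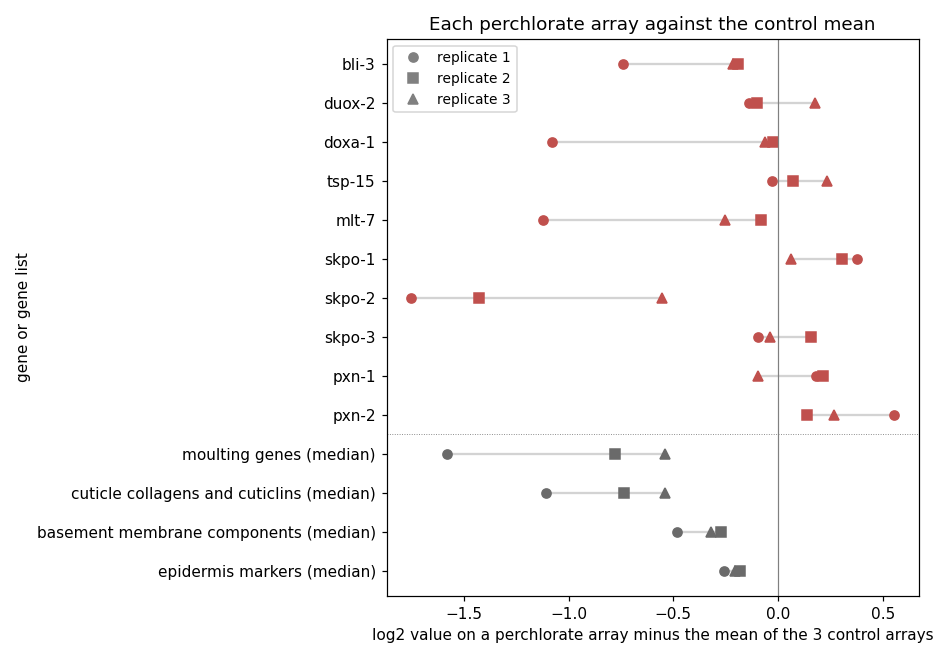
Log2 value on each perchlorate array minus the mean of the 3 control arrays (horizontal axis) for the 10 genes (red) and, as a median, for 4 other gene lists (grey); symbols give the replicate number. In bli-3, doxa-1 and mlt-7 replicate 1 lies between 0.74 and 1.12 below the control mean and the other arrays lie at most 0.254 below it, whereas skpo-2 is spread from -1.75 to -0.55.

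Several lists of genes that work beside these enzymes were described in the same fit, and 0 genes of these lists passed at a limma adjusted p under 0.05, in either direction. Differences between lists were not tested. Over all tested rows, 44.8% were below 0, and 7.92% were lower and 8.46% higher at an unadjusted limma p under 0.05. Without perchlorate replicate 1 the shares lower and higher were 7.24% and 7.03%. Cuticle collagens and cuticlins, the structural proteins of the cuticle, were mostly lower. Of 25 measured, 21 were below 0 and the median log2 difference was -0.81, and 17 were lower and 0 higher at an unadjusted limma p under 0.05. The extremes were dpy-5, a collagen gene, at -1.59 (SE 0.417, limma adjusted p = 0.163), and the adult collagen gene col-19 at 0.21 (SE 0.110, limma adjusted p = 0.398). Without perchlorate replicate 1 the median of this list was -0.61, with 22 below 0, and 15 lower and 0 higher at the unadjusted p.

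Moulting genes outside the 10 had lower means with perchlorate throughout the list. All 25 measured lay below 0, with a median of -0.98, and 20 were lower and 0 higher at an unadjusted limma p under 0.05. The extremes were mlt-11, whose product resembles protease inhibitors, at -1.84 (SE 0.315, limma adjusted p = 0.125), and nas-37, an astacin protease gene of cuticle shedding, at -0.11 (SE 0.121, limma adjusted p = 0.692). The list median against the control mean was -1.58, -0.78 and -0.54 in perchlorate replicates 1, 2 and 3, and between -0.16 and 0.06 in controls. Summed on the linear scale, these genes ranged from 3427 to 6044 on the perchlorate arrays and from 8422 to 9944 on the control arrays. Without replicate 1 the median was -0.64, with 21 lower and 0 higher. The part that this difference in moulting transcripts has in the values of bli-3, mlt-7 and skpo-2 was not tested.

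Genes of the basement membrane, the matrix where peroxidasins act in other animals, had mostly lower means with perchlorate. This list also holds the receptor genes ddr-1 and ddr-2. Of 13 measured, 12 lay below 0, with a median of -0.39, and 8 were lower and 0 higher at an unadjusted limma p under 0.05. The extremes were the ADAMTS protease gene gon-1 at -0.86 (SE 0.252, limma adjusted p = 0.188) and the laminin gene lam-3 at 0.36 (SE 0.226, limma adjusted p = 0.465). Without replicate 1 these were at -0.56 and 0.24. The collagen IV genes, named after their values were seen, were emb-9 at 10.03 ± 0.0443 with perchlorate and 10.46 ± 0.0711 in controls, and let-2 at 10.01 ± 0.0882 with perchlorate and 10.41 ± 0.190 in controls (SD, n = 3 each). Their log2 differences were -0.43 (SE 0.104, limma adjusted p = 0.152) and -0.39 (SE 0.133, limma adjusted p = 0.224). The list median was -0.30 without perchlorate replicate 1, with 11 below 0, and 7 lower and 0 higher at the unadjusted p.

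**Figure D4:**
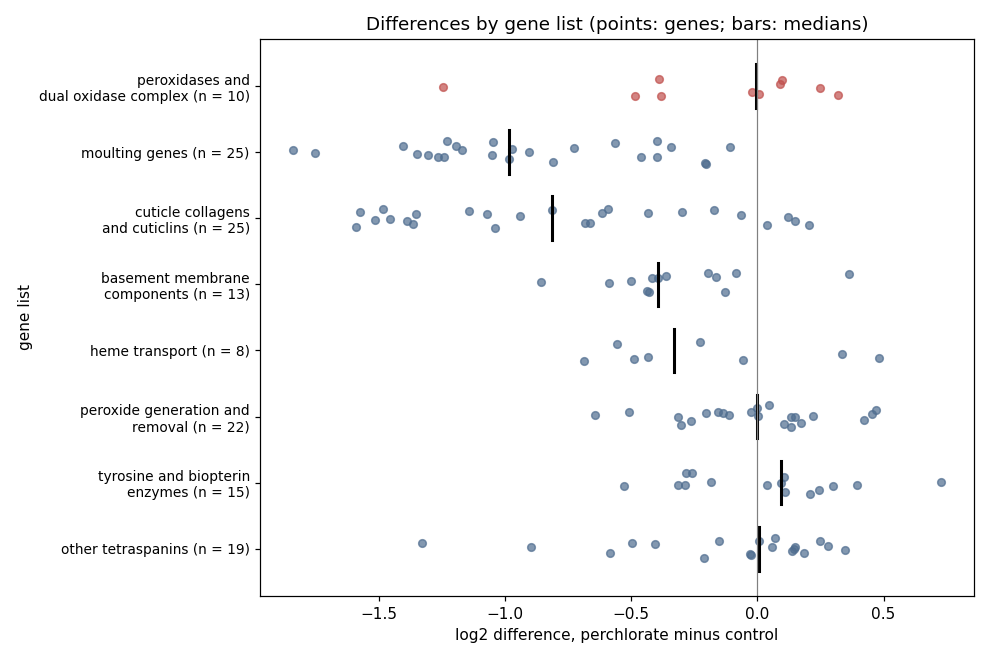
Log2 differences (horizontal axis, perchlorate minus control) of the 10 peroxidase and dual oxidase genes (red) and of the measured genes of 7 other lists (blue); points are genes and bars are medians. The red points straddle 0 with 1 gene far to the left, while the medians of moulting genes and of cuticle collagens and cuticlins are -0.98 and -0.81.

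Genes that supply or remove peroxide, listed together with the regulatory genes skn-1 and wdr-23 and with memo-1, were spread around 0. Of 22 measured, 11 lay below 0, with a median of 0.00, and 3 were lower and 2 higher at an unadjusted limma p under 0.05. Counted among the lower was skn-1, named after its value was seen, at -0.32 (SE 0.123, limma adjusted p = 0.272). The extremes were ctl-1, a catalase gene, at -0.65 (SE 0.143, limma adjusted p = 0.148), and gpx-8, a glutathione peroxidase gene at a very low signal, at 0.47 (SE 0.141, limma adjusted p = 0.190). The neighbouring, closely similar catalase gene ctl-2, named after its value was seen, was at -0.51 (SE 0.133, limma adjusted p = 0.163), and probes may not separate these copies. The third catalase gene, ctl-3, was at 0.13 (SE 0.182, limma adjusted p = 0.758). Without replicate 1 the list again had 3 lower and 2 higher. The memo-1 gene, whose product is known to restrain BLI-3 activity, was also named after its value was seen and was at -0.26 (SE 0.126, limma adjusted p = 0.352).

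Enzymes of tyrosine and biopterin metabolism, which include the tyrosinase-like tyr genes, also went both ways. Of 15 measured, 6 lay below 0, with a median of 0.09, and 2 were lower and 2 higher at an unadjusted limma p under 0.05. The extremes were tyr-2 at -0.53 (SE 0.319, limma adjusted p = 0.452) and cat-4, the GTP cyclohydrolase gene that starts biopterin synthesis, at 0.73 (SE 0.159, limma adjusted p = 0.148). The tyr-2 difference came mainly from replicate 1, where it read 9.87, against 11.09 and 11.07 on the other perchlorate arrays and between 11.17 and 11.23 in controls. Without that array it was at -0.12, and the list had 0 lower and 1 higher at an unadjusted limma p under 0.05, with a median of 0.12. The phenylalanine hydroxylase gene pah-1 had no row of its own and was not analysed here. Of 8 measured heme transport genes, 6 lay below 0, with a median of -0.33, and 4 were lower and 2 higher at an unadjusted limma p under 0.05. Its extremes were hrg-3 at -0.69 (SE 0.201, limma adjusted p = 0.187), whose product carries heme from the intestine to other tissues, and hrg-6 at 0.48 (SE 0.202, limma adjusted p = 0.297). Without replicate 1 the median was -0.24, with 5 below 0, and 3 lower and 0 higher at the unadjusted p. In that fit hrg-6 was at 0.32.

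The other tetraspanin genes gave a setting for tsp-15. Of 19 measured, 9 lay below 0, with a median of 0.01, and 5 were lower and 1 higher at an unadjusted limma p under 0.05. The extremes were tsp-2 at -1.33 (SE 0.133, limma adjusted p = 0.0939) and tsp-19 at 0.35 (SE 0.121, limma adjusted p = 0.235). The tsp-15 difference, 0.09, lay inside this range, but so did most rows. Of all tested rows, 0.313% had a lower difference than tsp-2 and 88.9% a lower one than tsp-19. Without replicate 1 the list had 8 below 0, and 3 lower and 1 higher at the unadjusted p, with a median of 0.06. Among 4 other listed genes, hpx-2, a heme peroxidase gene at a low signal, was at 0.02 (SE 0.168, limma adjusted p = 0.956). The other 3 are known only by sequence names to which the sources used here give no role, and of these T06D8.10 stood out. It read 5.44, 6.98 and 7.23 with perchlorate, against 8.2, 8.45 and 8.15 in controls, so that all perchlorate values were below the controls. Its log2 difference was -1.72 (SE 0.437, limma adjusted p = 0.159), and -1.16 (SE 0.154, limma adjusted p = 0.134) without replicate 1. It is the lower extreme of this list. The remaining genes, K10B4.1 and R08F11.7, the upper extreme, were at 0.02 and 0.14. Without replicate 1, hpx-2 was at -0.15, R08F11.7 at -0.04 and K10B4.1 at 0.00.

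Markers of the tissue that makes the cuticle were read on all arrays. Of 10 measured epidermis markers, 9 lay below 0, with a median of -0.19, and 2 were lower and 0 higher at an unadjusted limma p under 0.05. This list shares the collagen genes dpy-7 and col-19 with the list of cuticle collagens. The 1 marker above 0 was col-19, at 0.21. The summed linear level of the 10 markers ranged from 3438 to 3796 on the perchlorate arrays and from 3810 to 4024 on the control arrays. In whole animals, fewer cells of a type and less RNA per cell cannot be told apart. Medians of the other marker lists were -0.20 for body wall muscle (7 genes), -0.02 for pharynx (7), -0.22 for intestine (7), -0.11 for neurons (8), 0.01 for germline (8) and -0.06 for sperm (7). The 5 measured yolk genes, which are turned on strongly in adults, were already bright in both groups, with summed levels from 21509 to 25315 with perchlorate and from 20174 to 21315 in controls, and a median difference of 0.30. The highest sum was that of perchlorate replicate 1, the other perchlorate arrays reached 21539 at most, and without replicate 1 the median was 0.16. Without it the medians were also 0.05 for pharynx, -0.05 for germline and 0.02 for sperm. The part of stage or tissue makeup in the values of the 10 genes was not tested.

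Genes with profiles like those of single members were looked up over the 6 arrays among 12628 brighter genes, by the mean absolute difference between profiles set to their own control means. Nearest to bli-3 were glt-5, a glutamate transporter gene, H13N06.8 and rfip-1, at 0.025, 0.028 and 0.0379 log2 units. Nearest to mlt-7 were mfsd-11, F28H7.8 and Y38F1A.8, at 0.0415, 0.0575 and 0.0592. For doxa-1 they were M03F4.6, Y38H6C.16 and Y77E11A.12, at 0.058, 0.0629 and 0.0637. For pxn-2 they were Y43F4B.10, the yolk gene vit-4 and C01G10.15, at 0.023, 0.0266 and 0.0318. The search for skpo-2 was added after its values were seen, and gave appg-2, the lipocalin-related gene lpr-3 and M195.2, at 0.0577, 0.117 and 0.121.

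Among the 10 genes themselves, the nearest pairs were skpo-1 with pxn-1 (0.0812), skpo-3 with pxn-1 (0.0824) and doxa-1 with mlt-7 (0.0852). For bli-3 the nearest was mlt-7 (0.0998), whereas skpo-2 was at 0.503 from its nearest member, mlt-7.

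Protein-coding genes next to the 10 on the chromosome, in RefSeq order, were also read. Of 16 measured neighbours, 4 were below 0, beside 44.8% of all rows, and the median was 0.12 on the log2 scale. At an unadjusted limma p under 0.05, 2 were lower and 3 higher, beside 7.92% and 8.46% of all rows. The lower ones were acdh-6, beside doxa-1, at -1.11 (SE 0.231, limma adjusted p = 0.146), and ptr-11, a patched-related gene beside bli-3, at -0.75 (SE 0.115, limma adjusted p = 0.12). The higher ones were gplb-1, beside pxn-1, at 0.76 (SE 0.213), dod-23, beside skpo-1, at 0.63 (SE 0.178), and aqp-1, beside skpo-3, at 0.29 (SE 0.116), with limma adjusted p between 0.178 and 0.278. The measured neighbour of skpo-2, C16C8.18, was at 0.10 (SE 0.119, limma adjusted p = 0.71), so that the low level of skpo-2 was not seen in that row.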

How the data were processed

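The log2 values were deposited by the authors, who used RMA and Affymetrix Expression Console according to the submitters' processing notes. Tool versions and a genome build are not given in the sources used here, and gene coordinates are left out; the RefSeq table of assembly WBcel235 was used for names and for which genes neighbour each other. Among 29317 rows in the table, 25546 carried 1 symbol in the platform's annotation and 646 several; these 26192 rows were tested as deposited, with no further normalisation or filter. A gene was read from its brightest row with 1 symbol. Groups and replicate numbers came from the sample titles. The test of perchlorate against control used limma 3.58.1 in R 4.3.3 (lmFit and eBayes without trend, two-sided, Benjamini-Hochberg adjustment over all tested rows, threshold 0.05), with 4 residual and 3.12 prior degrees of freedom and a median SE of 0.153. The number of arrays limits the precision. Intervals are limma's, at 95%. The procedure was tested on simulated data, with normal noise at limma's row variances, equal in both groups, and no outlying array. At a limma adjusted p under 0.05 it recovered 69% of true log2 changes of 1 and 99% of changes of 2, with 12 false calls. Smaller changes were not simulated. In the deposited data the spread was wider among the perchlorate arrays in 62.6% of tested rows, and 1 of those arrays stood apart. The recovered shares may therefore not hold for these arrays, and a gene that did not pass may still have changed.

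The members, the gene lists and the naming rule were chosen with earlier results of these data known. The rule named all members, the genes with the largest difference in each direction of each list other than the marker lists, and for bli-3, mlt-7, pxn-2 and doxa-1 the 3 genes with the nearest profiles. Of the listed genes, 15 symbols had no row of their own, 2 of them the sequence name of a gene already counted. Alternatives were the replicate block, each array left out, quantile normalisation again, centring on the array median, 2 filters on dim rows, all rows, a trended and robust prior, array weights, and 2 rules for rows per gene.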

Additional observations from a re-analysis of the deposited data

How the results depend on the processing

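No member passed at a limma adjusted p under 0.05 in any of the 10 other settings or on leaving out any of the 6 arrays: 0 were lower and 0 higher in each. The skpo-2 difference lay between -1.3 and -1.23 in the other settings, with adjusted p between 0.0717 (trended and robust prior) and 0.266 (replicate block), and between -1.59 and -0.99 on leaving out an array, with adjusted p between 0.115 and 0.425. The count lower at an unadjusted limma p under 0.05, 1 with all arrays, was 2 above the median brightness, with the trended and robust prior and with array weights, where bli-3 joined skpo-2, and 1 to 3 on leaving out an array. The count higher, 0 with all arrays, was 1 with quantile normalisation again and with both filters on dim rows (pxn-2), 1 with the trended and robust prior (skpo-1), and 0 to 1 on leaving out an array. These settings also change the p-values of the other rows. Shares of all rows are given only for the main fit and without perchlorate replicate 1. In the other settings the counts cannot be set against all rows. The members whose groups did not overlap numbered 3 lower and 2 higher with all arrays. Quantile normalisation again and centring on the array median left these counts as they were. The remaining settings do not change the values of these members, so they could not move the counts. On leaving out an array the counts were 3 to 4 lower and 2 to 3 higher. Without perchlorate replicate 1 they were 3 and 2. The shares of all rows were then 15.7% and 17.5%, against 11.2% and 12.8% with all arrays. No such share is given for leaving out any other array, so those counts cannot be set against all rows. The median difference lay between -0.03 and 0.01 in the other settings and between -0.06 and 0.05 on leaving out an array, so it has no settled sign. Differences near 0 changed sign on leaving out an array: duox-2 ranged from -0.149 to 0.176 and skpo-3 from -0.0678 to 0.0582. Without perchlorate replicate 1 the differences of bli-3, doxa-1, mlt-7 and pxn-2 shrank to -0.20, -0.04, -0.17 and 0.20. The replicate block left 1 member lower and 0 higher at an unadjusted limma p under 0.05. Deviations of same-numbered arrays from their group means correlated at 0.03, -0.02 and -0.01, and those of other pairs between -0.04 and 0.05. With 3 arrays per group, these values cannot decide whether arrays of the same number belong together. Both filters on dim rows removed duox-2. For duox-2, which was below the lower quartile on every array, signal limits what could be detected.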
